A study of Rattus norvegicus with 20 samples.

Results

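The genes described here are 10 that encode the subunits of amylin receptors and proteases that degrade or cleave amyloid peptides: Calcr, Calcrl, Ramp1, Ramp2, Ramp3, Ide, Nrdc, Mme, Ece1 and Bace2. They were chosen by name for their roles, with earlier results of these data known, and each was found on the array with exactly 1 probe set, so 10 of the 10 are among the 18166 genes tested. Nardilysin, given as Nrd1, is listed under its current symbol Nrdc and was matched through a RefSeq synonym. The measurements come from INS-1, an insulin-secreting line from a rat insulinoma used in place of primary beta cells, hybridised to 20 Affymetrix Rat Gene 2.0 arrays. The cells were exposed to islet amyloid polypeptide (IAPP, or amylin), a hormone that beta cells secrete with insulin and that can form amyloid, and to C4b-binding protein (C4BP), which circulates in plasma and inhibits complement.

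The array titles name 4 groups of 5 arrays each, C4BP, C4BPD, IAPP and DMSO. The titles are not spelled out. The 4 conditions of the design point to C4BP as C4BP given together with IAPP, and to C4BPD as C4BP without IAPP, and this is taken as the likely reading. Per the series description, IAPP was monomeric when added and was given at 77 uM, C4BP at 0.6 uM and DMSO, the solvent of IAPP, at 1%, while the sample fields give 300 ug/ml for both proteins. The description states 10 h of incubation before RNA extraction, 5 clones kept apart for 10 passages, and 100000 cells per well. All groups are the same line on the same plate format, and the labels do not say that the number in a title is a clone, so p-values measure only the spread between these samples, which may be technical. A separate treatment field of the samples matches the title in 3 of the 20 arrays, and in 2 of the 10 titled IAPP or DMSO. Every comparison below rests on the titles. With groups taken from the treatment field, 0 of 18166 genes passed the threshold in each of the 6 pairwise comparisons, in the interaction and in the test across the 4 groups, all in limma. At an unadjusted p under 0.05, between 2.35% and 5.11% of genes passed under that grouping.

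Amylin has no receptor of its own. The calcitonin receptor, encoded by Calcr, binds amylin with high affinity when it is paired with a receptor activity-modifying protein (RAMP), a single-pass membrane partner. The related calcitonin receptor-like receptor, encoded by Calcrl, becomes a receptor for calcitonin gene-related peptide with RAMP1 and for adrenomedullin with RAMP2 or RAMP3. On the degradation side, insulin-degrading enzyme (Ide) and neprilysin (Mme) cleave amylin and other amyloid-forming peptides, and endothelin-converting enzyme (Ece1), a relative of neprilysin, cleaves amyloid-beta. BACE2 is an aspartic protease of beta cells, and nardilysin is a relative of insulin-degrading enzyme that cuts at dibasic sites and enhances ectodomain shedding.

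Of the 10 genes, Ramp1, Ramp2 and Ece1 differed among the 4 groups after adjustment over all 18166 genes, where 7.85% of genes did so. Ramp1 fell by 20.2% in C4BP relative to DMSO, fell by 13.6% in IAPP relative to DMSO, and fell by 13.7% in C4BP relative to C4BPD. Ece1 fell by 11.6% in C4BP relative to DMSO. Ramp2 was 20.7% higher in C4BPD than in IAPP. The adjusted p-values of the moderated F test in limma were 0.00269 for Ramp1, 0.0167 for Ramp2 and 0.0332 for Ece1, and between 0.128 and 0.986 for the other 7 genes. With each array left out in turn, Ramp1 passed in 20 of 20 fits, Ramp2 in 18 and Ece1 in 8. Ramp2 was lost without IAPP 2 or IAPP 4, at an adjusted p of up to 0.0513, and Ece1 passed without C4BP 1 or 2, C4BPD 1 or 3, IAPP 1, 2 or 5, or DMSO 3, and otherwise reached up to 0.0763. With arrays centred on their medians Ramp2 and Ece1 did not pass (adjusted p = 0.0658 and 0.0984), nor did Ece1 with all probe sets tested (0.0790). In a setting chosen after seeing the data, all 4 arrays of a title number were left out. Ramp1 was then lost without number 4, Ramp2 without 2, 3 or 4, and Ece1 without 1, 2, 4 or 5. With single arrays left out, the Ramp1 call was kept in 20 of 20 fits in C4BP vs DMSO. It was kept in 13 in IAPP vs DMSO and in 5 in C4BP vs C4BPD. Since these are bulk RNA measurements, a smaller share of cells expressing a gene and less of its RNA per cell cannot be told apart.

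Of the genes that passed the test across the 4 groups, the promoters of Ramp1 and Ece1 are shown with the motifs found in them. RefSeq's promoter table for build GRCr8 held 8 of the 10 genes, and had no entry for Ramp2 or Bace2. The 250 bases before the start site are given 5′ to 3′ on the gene's strand, with GC boxes and CCAAT boxes in capitals. Both kinds of match lie on the opposite strand, so they read as their reverse complement.
Ramp1, chr9:99212866-99213115 (+): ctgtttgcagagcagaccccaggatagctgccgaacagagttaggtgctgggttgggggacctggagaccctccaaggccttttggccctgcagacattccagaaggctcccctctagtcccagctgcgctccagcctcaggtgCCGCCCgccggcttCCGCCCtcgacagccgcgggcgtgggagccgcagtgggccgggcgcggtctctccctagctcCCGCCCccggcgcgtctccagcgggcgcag
Ece1, chr5:155360781-155361030 (+): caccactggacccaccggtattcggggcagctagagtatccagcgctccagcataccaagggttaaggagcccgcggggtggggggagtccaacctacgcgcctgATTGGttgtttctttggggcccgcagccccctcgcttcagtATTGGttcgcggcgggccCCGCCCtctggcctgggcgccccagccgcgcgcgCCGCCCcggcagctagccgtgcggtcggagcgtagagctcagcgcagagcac
The Ramp1 promoter is 70% G and C and holds 3 GC boxes (GGGCGG), 106, 92 and 30 bases before the start. That of Ece1 is 69.2% G and C and holds 2 GC boxes, at 86 and 52 bases, and 2 CCAAT boxes, at 145 and 104 bases. On either strand, 30.5% of the 33469 promoters in the table hold a GC box and 34% a CCAAT box in this window. The other motifs searched, TGANTCA (the AP-1 site), TGACGTCA (the cAMP response element) and TATAAA (the TATA box), are in neither of these windows and occur in 6.34%, 1.59% and 12.9% of all promoters. Among promoters of genes that passed no test, those of Mme (70.4%), Calcr (70%) and Ide (69.2%) are as rich in G and C. Those of Nrdc and Ramp3 (61.6% each) and Calcrl (43.6%) are less so. Ide, Mme, Calcr and Ramp3 also hold at least 1 GC box, and Calcrl and Nrdc none. Nrdc holds 3 CCAAT boxes, so both motifs occur in genes that passed no test too. A match is a description of the letters and not a site of binding.

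Expression is given as the deposited linear intensity of each gene's probe set. Intensities of different probe sets depend on their probes and are not compared with each other. As a guide to which signals are dim, the median intensity of all probe sets over the 20 arrays was 178. The group means of Calcr, Calcrl, Ramp3 and Mme lay below this value in all 4 groups, and these 4 genes were not shown to be above background. Those of Ramp1, Ramp2, Ide, Nrdc, Ece1 and Bace2 lay above it, which does not by itself show signal above background. Ramp1 averaged 214 to 268 in the 4 groups, and the fibroblast markers Col1a1 and Col3a1 averaged 197 to 231. The fibroblast markers Col1a2 and Dcn averaged 142 to 144 and 55.8 to 62.7, below the median. Probe sets differ, so these values set no background level. The median intensity of an array ranged from 171 to 183, arrays correlated with each other at 0.985 to 0.996 over all probe sets, and no 2 arrays were identical. The number of arrays limits the precision.

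**Figure D1:**
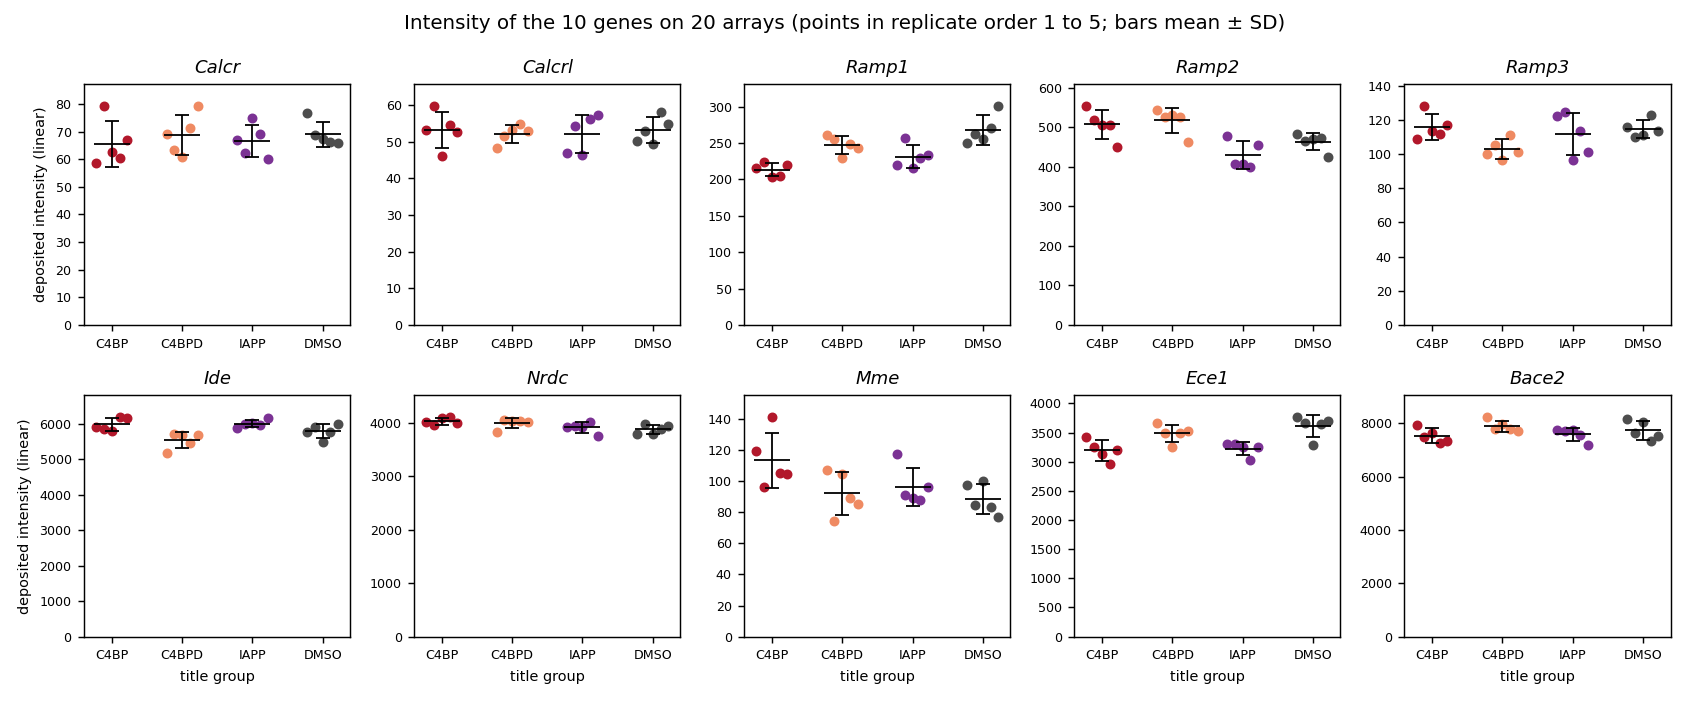
Intensity (linear, axis from 0) of the 10 genes in each array, with groups ordered C4BP, C4BPD, IAPP and DMSO. Points are arrays in the order of their title numbers and bars are mean ± SD over 5 arrays; the Ramp1 points of C4BP lie between 203 and 224, all below the DMSO points at 250 to 301.

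The receptor genes themselves did not pass the test in any comparison. Calcr, the calcitonin receptor, averaged 65.6 ± 8.29 in C4BP, 68.7 ± 7.19 in C4BPD, 66.6 ± 5.84 in IAPP and 68.9 ± 4.45 in DMSO (intensity, SD, n = 5 each). Its 20 values ran from 58.7 to 79.4, and both extremes were C4BP arrays. Calcrl averaged 53.2 ± 4.94 in C4BP, 52.1 ± 2.44 in C4BPD, 52.1 ± 5.14 in IAPP and 53.1 ± 3.51 in DMSO (SD, n = 5 each), with all 20 values between 46.0 and 59.8. The 4 groups overlapped for both genes. The log2 differences over the 6 pairwise comparisons lay between -0.08 and 0.04 for Calcr and between -0.03 and 0.03 for Calcrl, with limma adjusted p-values of at least 0.761 and 0.908. Differences of this size did not pass, and the part of the dim signal in this was not tested.

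The receptor partner Ramp1 differed most clearly. RAMP1 turns the calcitonin receptor into an amylin receptor and the calcitonin receptor-like receptor into the receptor for calcitonin gene-related peptide. Ramp1 intensities were 216, 224, 203, 205 and 219 in C4BP and 261, 255, 229, 248 and 244 in C4BPD. They were 220, 257, 216, 230 and 234 in IAPP, against 250.1, 262, 255, 271 and 301 in DMSO. All C4BP arrays were lower than all C4BPD and all DMSO arrays, while the IAPP arrays overlapped with DMSO through IAPP 2. Group means were 214 ± 9.13 in C4BP, 247 ± 12.3 in C4BPD, 231 ± 16.3 in IAPP and 268 ± 20.3 in DMSO (SD, n = 5 each).

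In C4BP vs DMSO the Ramp1 log2 difference was -0.32 (95% interval -0.44 to -0.21), with a limma adjusted p of 0.000656, and the value was lower in 5 of 5 pairs of arrays with the same title number. Of all genes, 3.23% were lower after adjustment in this comparison and 3.28% were lower with no overlap between the groups. The call was kept in all 20 fits that left out 1 array, at an adjusted p of at most 0.00294. In IAPP vs DMSO the log2 difference was -0.21 (-0.33 to -0.10, adjusted p = 0.0375), again lower in 5 of 5 numbers, in a comparison where 1.97% of genes were lower. This call was lost without IAPP 1, 3, 4 or 5 or DMSO 2, 4 or 5, where the adjusted p lay between 0.0626 and 0.116, and also with all probe sets tested (0.0832) and with only the 2 groups fitted (0.11). In C4BP vs C4BPD the log2 difference was -0.21 (-0.33 to -0.10, adjusted p = 0.0458), where 1.62% of genes were lower. It was lost without any single C4BP array, without C4BPD 1, 2, 4 or 5, IAPP 1, 4 or 5, or DMSO 2, 3 or 4, at adjusted p-values between 0.0505 and 0.108. Quantile normalization, an intensity trend, all probe sets and a fit of the 2 groups alone ended it too (0.0563, 0.0519, 0.108 and 0.0676).

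The Ramp1 comparisons that did not pass bound the other differences. C4BPD vs DMSO gave -0.11 (-0.23 to 0.0031, adjusted p = 0.429), C4BP vs IAPP -0.11 (-0.23 to 0.0020, adjusted p = 0.648) and C4BPD vs IAPP 0.10 (adjusted p = 0.365) on the log2 scale. The interaction, the difference of C4BP from C4BPD less that of IAPP from DMSO, was -0.0011 with an interval of -0.16 to 0.16. Under the likely reading of the titles it asks whether the difference with IAPP depends on C4BP. The interval admits a dependence of that size in either direction. Across all genes 0.0495% passed the interaction test, and 0 of the 10 genes did; at an unadjusted p under 0.05, 1 of the 10 did (Ramp3), against 3.79% of all genes. The 5 DMSO arrays are shared by every comparison with DMSO, so these are not independent.

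Ramp2, a partner in adrenomedullin and amylin receptors, took a different order. Its intensities were 555, 518, 507, 506 and 450.1 in C4BP and 544, 526, 531, 525 and 463 in C4BPD. They were 479, 406, 407, 401 and 455 in IAPP, against 483, 465, 470.0, 472 and 425 in DMSO. C4BPD 1 to 4 were higher than every IAPP and DMSO array, and C4BPD 5 lay within the range of both. Means were 507 ± 37.5 in C4BP, 518 ± 31.5 in C4BPD, 429 ± 35.2 in IAPP and 463 ± 22.2 in DMSO (SD, n = 5 each).

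Ramp2 passed the test in C4BPD vs IAPP only, with a log2 difference of 0.27 (0.14 to 0.40) and an adjusted p of 0.00991, higher in 5 of 5 numbers, where 3.64% of genes were higher. The call was kept in all 20 fits that left out 1 array (adjusted p at most 0.0352), and was lost when all 4 arrays numbered 2, 3 or 4 were left out (adjusted p between 0.0977 and 0.11). C4BP vs IAPP gave 0.24 (0.11 to 0.37, adjusted p = 0.0892), higher in 4 of 5 numbers. Set against DMSO, the log2 differences were 0.13 in C4BP (adjusted p = 0.304), 0.16 in C4BPD (0.031 to 0.29, adjusted p = 0.257) and -0.11 in IAPP (-0.24 to 0.016, adjusted p = 0.509). The first and second of these were positive in 5 of 5 numbers. C4BP vs IAPP was a comparison with few calls: 0 of the 10 genes passed, against 0.606% of all genes, and Ramp2 alone had an unadjusted p under 0.05, against 7.93%. Without C4BP 5 the adjusted p of Ramp2 in C4BP vs IAPP was 0.0431.

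Ramp3, the remaining partner, was dim and passed no test. Its intensities were 109, 128, 114, 112 and 117 in C4BP, 99.8, 106, 96.7, 111 and 101 in C4BPD, 122, 125, 96.7, 113 and 101 in IAPP, against 116, 110.1, 111, 123 and 113 in DMSO. The C4BPD values were the lowest on average, 103 ± 5.64, against 116 ± 7.59 in C4BP, 112 ± 12.4 in IAPP and 115 ± 5.04 in DMSO (SD, n = 5 each). In C4BPD vs DMSO the log2 difference was -0.16 (-0.29 to -0.02, adjusted p = 0.313), with lower values in 5 of 5 numbers. In that comparison 0 of the 10 genes passed, against 1.93% of all genes, and 2 of the 10 had an unadjusted p under 0.05 (Ramp2 and Ramp3), against 12.2%. The interaction of Ramp3 was 0.22 (0.025 to 0.41), with an unadjusted p of 0.0286 in limma and an adjusted p of 1.00.

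**Figure D2:**
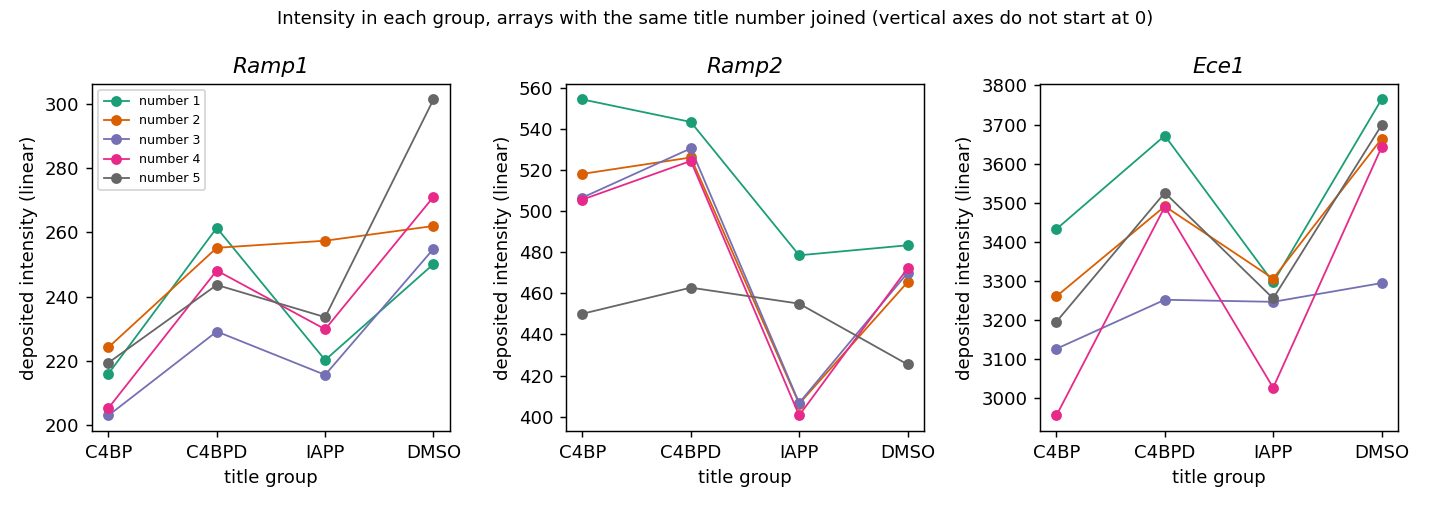
Intensity of Ramp1, Ramp2 and Ece1 by group (C4BP, C4BPD, IAPP, DMSO), with lines joining arrays that share a title number and a vertical axis that does not start at 0. Ramp1 is lower in C4BP and in IAPP than in DMSO for all 5 numbers, and Ramp2 is higher in C4BPD than in IAPP for all 5.

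Among the proteases, Ece1 was the one that passed. Endothelin-converting enzyme 1 is a membrane metalloprotease that processes endothelin precursors and cleaves amyloid-beta. Its intensities were 3433, 3261, 3127, 2957 and 3196 in C4BP and 3672, 3491, 3252, 3490.0 and 3526 in C4BPD. They were 3297, 3306, 3247, 3028 and 3256 in IAPP, against 3764, 3664, 3295, 3642 and 3698 in DMSO. All IAPP arrays but IAPP 1 and 2, and all C4BP arrays but C4BP 1, were lower than the lowest DMSO array, DMSO 3. Means were 3195 ± 175 in C4BP, 3486 ± 151 in C4BPD, 3227 ± 114 in IAPP and 3613 ± 183 in DMSO (SD, n = 5 each).

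In C4BP vs DMSO the Ece1 log2 difference was -0.18 (-0.27 to -0.08, adjusted p = 0.0237), lower in 5 of 5 numbers, so that 2 of the 10 genes passed there, against 5.96% of all genes. The call was lost without C4BP 3 or 4 or DMSO 1, 2, 4 or 5, at adjusted p-values between 0.0533 and 0.0768. It was also lost with arrays centred on their medians, with all probe sets tested, and with only the 2 groups fitted (0.0693, 0.0567 and 0.0996). Without DMSO 3, the lowest DMSO array, it was -0.21 (adjusted p = 0.00698). In IAPP vs DMSO the difference was -0.16 (-0.26 to -0.07, adjusted p = 0.0616), a percent difference of -10.6% with lower values in 5 of 5 numbers, which did not pass; without DMSO 3 it was -0.19 with an adjusted p of 0.0202. That comparison had 1 of the 10 genes past the threshold, Ramp1, against 3.38% of all genes. C4BPD vs DMSO was -0.05 (adjusted p = 0.736), C4BP vs IAPP -0.02 (adjusted p = 0.997), C4BP vs C4BPD -0.13 (adjusted p = 0.201) and C4BPD vs IAPP 0.11 (adjusted p = 0.198).

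Insulin-degrading enzyme, the zinc protease that clears insulin and amylin, was lowest in C4BPD. Ide intensities were 5904, 5868, 5806, 6190.0 and 6158 in C4BP and 5175, 5716, 5682, 5461 and 5679 in C4BPD. They were 5882, 6009, 6023, 5959 and 6175 in IAPP, against 5783, 5908, 5487, 5784 and 6005 in DMSO. Every C4BPD array was lower than every C4BP and every IAPP array, whereas C4BPD overlapped with DMSO through DMSO 3. Means were 5985 ± 176 in C4BP, 5543 ± 229 in C4BPD, 6009.6 ± 108 in IAPP and 5793 ± 195 in DMSO (SD, n = 5 each).

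Neither Ide difference without overlap passed the test. C4BP vs C4BPD gave 0.11 (0.035 to 0.19, adjusted p = 0.139) and C4BPD vs IAPP -0.12 (-0.19 to -0.04, adjusted p = 0.0682), the second a percent difference of -7.82%. Groups did not overlap for 3.73% of all genes in C4BP vs C4BPD, where 2 of the 10 did so (Ramp1 and Ide), and for 7.06% in C4BPD vs IAPP, where 1 did (Ide). In C4BPD vs IAPP 1 of the 10 genes passed (Ramp2), against 5.46% of all genes. Same-numbered arrays of these groups deviated together (r = 0.152 to 0.305 over genes in the 5 pairs), and with the title number as a block Ide passed as well, at an adjusted p of 0.0237. The block raised the count there to 2 of the 10 genes (Ramp2 and Ide), and that of all genes to 1908, 10.5%, against 992 without it. In C4BP vs C4BPD 1 of the 10 passed (Ramp1), against 2.37% of all genes. The log2 differences from DMSO were 0.05 in IAPP (adjusted p = 0.669) and -0.06 in C4BPD (adjusted p = 0.523).

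Neprilysin had the widest spread of the 10 genes, 1.89-fold between its highest and lowest array, at a dim signal. Mme intensities were 119, 95.9, 141, 105 and 105 in C4BP and 107, 74.5, 105, 89.0 and 85.3 in C4BPD. They were 117, 91.1, 89.1, 87.9 and 96.3 in IAPP, against 97.6, 84.8, 100.0, 83.4 and 76.8 in DMSO. The C4BP arrays were higher than the DMSO arrays of the same number in 5 of 5, and the groups overlapped. The largest difference was C4BP vs DMSO, 0.35 on the log2 scale (0.12 to 0.58), 27.4% higher, with an adjusted p of 0.0762. C4BP vs C4BPD gave 0.30 (adjusted p = 0.222), C4BP vs IAPP 0.23 (adjusted p = 0.652) and IAPP vs DMSO 0.12 (adjusted p = 0.810).

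Nrdc and Bace2 were bright and varied little. Nrdc averaged 4034 ± 66.3 in C4BP, 3997 ± 90.4 in C4BPD, 3915 ± 96.1 in IAPP and 3879 ± 78.1 in DMSO, and its 20 values spanned 3754 to 4108, a range of 1.09-fold (SD, n = 5 each). Bace2 averaged 7538 ± 280 in C4BP, 7894 ± 215 in C4BPD, 7587 ± 243 in IAPP and 7748 ± 351 in DMSO, and its values spanned 7177 to 8234, a range of 1.15-fold (SD, n = 5 each). The groups overlapped for both genes. Their log2 differences lay between 0.01 and 0.06 for Nrdc and between -0.07 and 0.06 for Bace2, with adjusted p-values of at least 0.403 and 0.470.

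**Figure D3:**
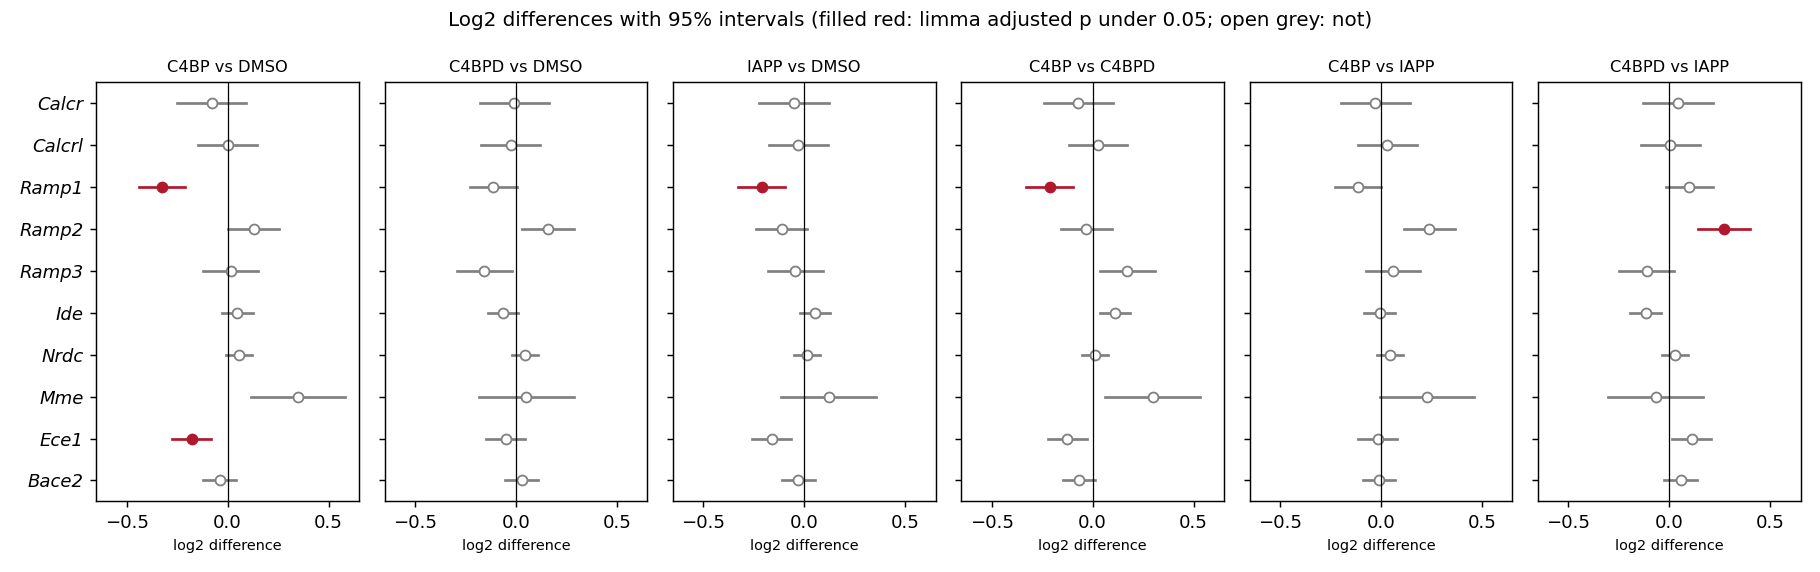
Log2 differences with 95% intervals for the 10 genes in the 6 pairwise comparisons. Filled red points have a limma adjusted p under 0.05: Ramp1 in IAPP vs DMSO, C4BP vs DMSO and C4BP vs C4BPD, Ece1 in C4BP vs DMSO, and Ramp2 in C4BPD vs IAPP.

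As a list, the 10 genes had no common direction. The median log2 difference from DMSO was 0.0083 in C4BP, against 0.0047 over all genes, -0.017 in C4BPD, against -0.0090, and -0.037 in IAPP, against 0.0018. The median size of the difference, without its sign, was 0.067 in C4BP vs DMSO, against 0.056 over all genes, and 0.052 in IAPP vs DMSO, against 0.050. It was 0.091 in C4BP vs C4BPD, against 0.057, and 0.037 in C4BP vs IAPP, against 0.045. In each pairwise comparison at most 2 of the 10 genes passed.

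The ligands of these receptors did not pass the test. Among the 5 genes of the calcitonin family, 0 passed in any of the 6 comparisons, with median log2 differences from DMSO of -0.066 in C4BP, -0.042 in C4BPD and -0.058 in IAPP. Adm, which encodes adrenomedullin, and Iapp itself had the smallest p-values of the F test (adjusted p = 0.354 and 0.435 in limma). At an unadjusted p under 0.05 in limma 1 of the 5 passed, Adm in C4BPD vs DMSO, where 12.2% of all genes did, with a log2 difference of -0.21 (adjusted p = 0.238). The endogenous Iapp transcript averaged 11161 ± 695 in C4BP, 11855 ± 263 in C4BPD, 11240 ± 568 in IAPP and 11841 ± 523 in DMSO (SD, n = 5 each), and its difference in IAPP vs DMSO was -0.08 (adjusted p = 0.594).

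Among 14 measured receptor partners and signal transducers, 2 were lower and 0 higher in C4BP vs DMSO, and 1 was lower in C4BPD vs DMSO and 1 in IAPP vs DMSO. Of all genes, 3.23%, 0.765% and 1.97% were lower in these 3 comparisons. The medians from DMSO were -0.016 in C4BP, -0.041 in C4BPD and 0.018 in IAPP. Ackr3, an atypical chemokine receptor that also takes up adrenomedullin, averaged 609 ± 31.8 in C4BP, 694 ± 29.2 in C4BPD, 565 ± 29.2 in IAPP and 697 ± 27.1 in DMSO (SD, n = 5 each). It was lower in IAPP vs DMSO (log2 difference -0.30, adjusted p = 0.000393), in C4BP vs DMSO (-0.20, adjusted p = 0.0109) and in C4BP vs C4BPD (-0.19, adjusted p = 0.0266), and higher in C4BPD vs IAPP (0.30, adjusted p = 0.000317). Arrb1, beta-arrestin 1, was lower in C4BPD than in DMSO (-0.18, adjusted p = 0.0445) and in C4BPD than in IAPP (-0.23, adjusted p = 0.00319). Grk5, a kinase of activated receptors, was lower in C4BP than in DMSO (-0.23, adjusted p = 0.0253). Leaving out single arrays lost the Arrb1 call against DMSO in 14 of 20 fits (adjusted p up to 0.124) and the Ackr3 call of C4BP vs C4BPD (up to 0.0878) and that of Grk5 (up to 0.0796) in 5 each.

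Of 10 other measured class B receptors, the family to which Calcr and Calcrl belong, 2 were lower in C4BP vs DMSO (3.23% of all genes) and 1 in IAPP vs DMSO (1.97% of all genes), and 0 passed in C4BPD vs DMSO. The medians were -0.032 in C4BP, -0.033 in C4BPD and -0.029 in IAPP. Gipr, the receptor of the incretin GIP, averaged 2294 ± 290 in C4BP, 2926 ± 275 in C4BPD, 2064 ± 306 in IAPP and 2801 ± 299 in DMSO (SD, n = 5 each). It was lower in IAPP than in DMSO (-0.45, adjusted p = 0.0191) and higher in C4BPD than in IAPP (0.51, adjusted p = 0.00463). The glucagon receptor gene Gcgr was lower in C4BP than in C4BPD (-0.20, adjusted p = 0.0318) and in C4BP than in DMSO (-0.20, adjusted p = 0.0176). Adcyap1r1, the receptor of the neuropeptide PACAP, was lower in C4BP than in DMSO (-0.30, adjusted p = 0.0237). Single left-out arrays ended the Gipr call against DMSO in 4 of 20 fits (adjusted p up to 0.0610), those of Gcgr in 7 against C4BPD (up to 0.106) and 3 against DMSO (up to 0.0604), and that of Adcyap1r1 in 5 (up to 0.0765).

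Of 10 relatives of Ide, Nrdc, Mme and Ece1, only Pitrm1 passed, a mitochondrial peptidase of the Ide family that degrades presequences and amyloid-beta. It averaged 5073 ± 129 in C4BP, 4689 ± 96.0 in C4BPD, 4986 ± 121 in IAPP and 4595 ± 66.6 in DMSO (SD, n = 5 each), and was higher in C4BP than in DMSO (0.14, adjusted p = 0.00637) and in IAPP than in DMSO (0.12, adjusted p = 0.0390). Of all genes, 2.72% were higher in C4BP vs DMSO and 1.41% in IAPP vs DMSO. The list medians from DMSO were 0.032 in C4BP, 0.019 in C4BPD and -0.0028 in IAPP. The IAPP call was lost in 10 of 20 fits without 1 array (adjusted p up to 0.113).

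Of 11 measured secretases and substrates, Cltrn and Adam9 passed. Cltrn encodes collectrin, a membrane protein that BACE2 sheds in mouse beta cells. It averaged 3122.5 ± 162 in C4BP, 3526 ± 205 in C4BPD, 3441 ± 237 in IAPP and 3980 ± 357 in DMSO (SD, n = 5 each). All C4BP arrays were lower than all DMSO arrays, and the difference was -0.35 (adjusted p = 0.000900). Of all genes, 3.23% were lower after adjustment in that comparison and 3.28% were lower with no overlap between the groups. Adam9, a metalloprotease with alpha-secretase activity, was higher in C4BPD than in IAPP (0.16, adjusted p = 0.0105) and than in DMSO (0.19, adjusted p = 0.00412). Of all genes, 3.64% were higher in C4BPD vs IAPP and 1.17% in C4BPD vs DMSO. The medians from DMSO were 0.0083 in C4BP, -0.015 in C4BPD and 0.012 in IAPP.

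Of 19 other degrading enzymes and amyloid-binding chaperones, 3 were higher (2.72% of all genes) and 0 lower in C4BP vs DMSO, 1 was higher in IAPP vs DMSO (1.41% of all genes), and 0 passed in C4BPD vs DMSO. The medians were 0.014 in C4BP, -0.0067 in C4BPD and 0.029 in IAPP. Ctsl, the lysosomal cathepsin L, was higher in C4BP (0.15, adjusted p = 0.0171) and in IAPP (0.18, adjusted p = 0.00736) than in DMSO, and lower in C4BPD than in IAPP (-0.13, adjusted p = 0.0494). Clu, the extracellular chaperone clusterin, was higher in C4BP than in DMSO (0.15, adjusted p = 0.00644), as was Thop1, a cytosolic oligopeptidase (0.16, adjusted p = 0.0248). Anpep, aminopeptidase N, averaged 601 ± 94.1 in C4BPD and 380.1 ± 57.3 in IAPP (SD, n = 5 each), a difference of 0.66 (adjusted p = 0.00256). Leaving out 1 array ended the Ctsl calls in 17 of 20 fits for C4BPD vs IAPP (adjusted p up to 0.137) and in 2 for C4BP vs DMSO (up to 0.0522), and that of Thop1 in 5 (up to 0.0736). Over the 6 lists, 23 calls were made for 13 genes, of which 12 were kept in all 20 fits. Other settings ended more of them: 13 were lost with only the 2 groups fitted, among them Adam9 in C4BPD vs DMSO and Gcgr, Grk5, Adcyap1r1, Pitrm1, Thop1, Ctsl and Clu in C4BP vs DMSO. With arrays centred on their medians 8 were lost, among them Clu, Ctsl, Grk5 and Thop1 in C4BP vs DMSO and Arrb1 in C4BPD vs DMSO, with all probe sets tested 8, and with quantile normalization 2. Left in every setting but the treatment field were 5 calls: Ackr3 in IAPP vs DMSO, Cltrn in C4BP vs DMSO, and Ackr3, Arrb1 and Anpep in C4BPD vs IAPP. In C4BP vs IAPP and in the interaction 0 of the 69 measured genes of the 6 lists passed, and 8 and 3 of them had an unadjusted p under 0.05 in limma, against 7.93% and 3.79% of all genes.

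**Figure D4:**
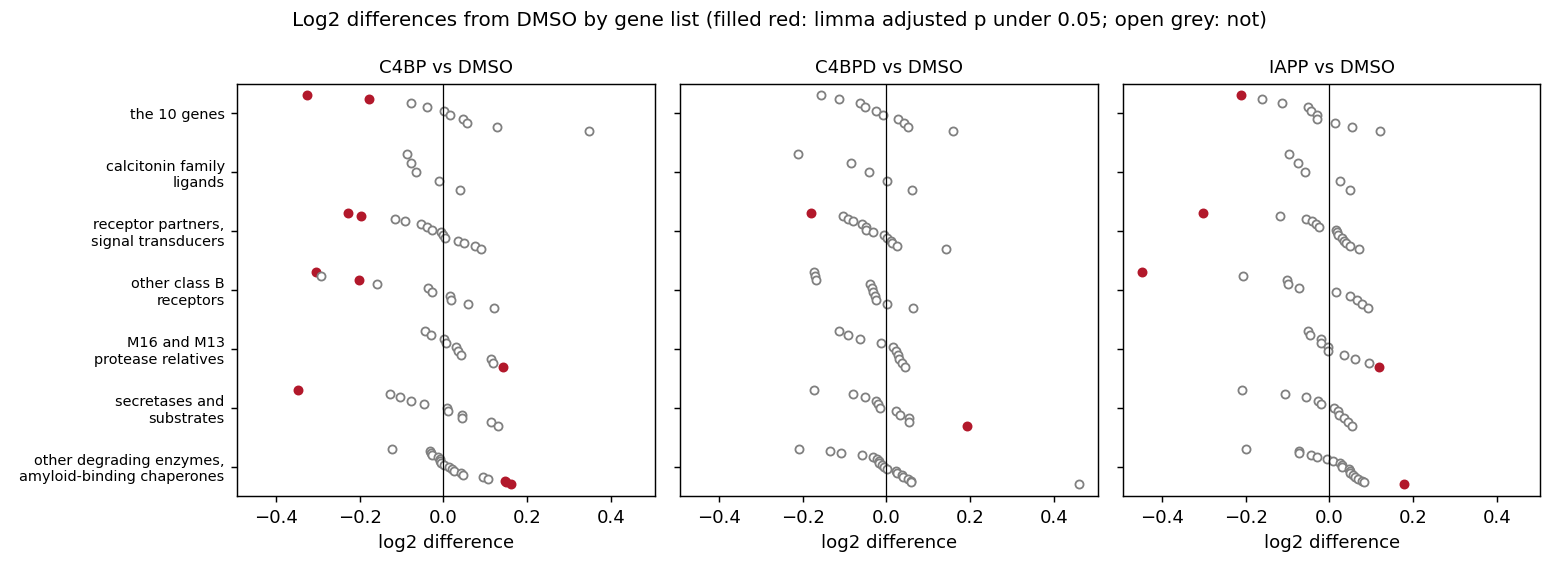
Log2 differences from DMSO for the 10 genes and for 6 lists of related genes, in C4BP, C4BPD and IAPP. Each point is a gene and filled red points have a limma adjusted p under 0.05. In C4BP vs DMSO the called points below 0 include Ramp1, Ece1, Ackr3 and Cltrn, and those above 0 Pitrm1, Thop1, Ctsl and Clu.

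The genes whose intensity followed Ramp1, Ramp2 and Ece1 most closely over the 20 arrays were sought among 11153 genes at or above the median intensity. For Ramp1 they were Casr (Pearson's r = 0.892), Pde2a (0.869) and Casz1 (0.866). For Ramp2 they were Rangrf (0.867), Akr7a2 (0.844) and Stat2 (0.840). For Ece1 they were Vil1 (0.956), Pc (0.942) and Abcg1 (0.933). After each group's mean was subtracted, r was 0.775, 0.486 and 0.571 for the 3 genes of Ramp1, 0.829, 0.575 and 0.611 for those of Ramp2, and 0.902, 0.901 and 0.901 for those of Ece1. The 20 arrays share their groups and their normalization, and the genes were picked as the highest of many.

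In all 4 groups 10 of 10 measured beta-cell markers lay above the median intensity. Their summed intensity ran from 61311 to 65548 in C4BP, 64899 to 69455 in C4BPD, 61846 to 65070 in IAPP and 64695 to 69103 in DMSO, with lower ranges in C4BP and IAPP, the groups in which Ramp1 and Ece1 averaged lowest. In C4BP vs DMSO 4 of the 10 markers were lower (Nkx2-2, Mafa, Slc2a2 and Slc30a8), in IAPP vs DMSO 2 (Mafa and Slc2a2) and in C4BP vs C4BPD 1 (Slc2a2), against 3.23%, 1.97% and 1.62% of all genes. Among 4 other islet hormones, 2 lay above the median, and Gcg was lower in IAPP than in DMSO (-0.13, adjusted p = 0.0195) and higher in C4BPD than in IAPP (0.11, adjusted p = 0.0456). Their summed intensity ran from 10230 to 10818 in C4BP, 10351 to 10760.2 in C4BPD, 9582 to 10041 in IAPP and 10383 to 11078 in DMSO. Of the acinar and duct, fibroblast, and endothelial and blood markers, 1 of 5, 2 of 4 and 0 of 4 lay above the median, and 0 passed in any comparison. The part of the marker levels in the differences of Ramp1, Ramp2 and Ece1 was not tested.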

How the data were processed

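INS-1 cells were profiled on 20 Affymetrix Rat Gene 2.0 arrays, 5 per title group. The authors deposited 1 normalized intensity per probe set on a linear scale, as the values show, and Affymetrix Expression Console stands in the submitters' processing notes. For its version, the normalization and the genome build the entry is: not given in the sources used here. Scale and centring could not be set against scanner values.

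Of 36685 probe sets, 190 controls were left out. GEO's platform annotation gave 18511 probe sets 1 symbol, 575 several and 17599 none; the brightest probe set stood for each of the 291 genes with more than 1, which left 18166 genes. The log2 of each intensity was fitted with 4 group means over all arrays in limma 3.58.1 (R 4.3.3; lmFit, eBayes; 16 residual degrees of freedom). Tests were two-sided, adjusted by Benjamini-Hochberg over all genes, with a threshold of 0.05. Percent differences come from back-transformed log2 differences; levels are arithmetic means ± SD of intensity. The fit was tested on simulated data. The number of arrays limits the precision.

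The members and lists were chosen with earlier results of these data known. Text names all 10 members, every list gene past the threshold or, where none was, the 2 with the smallest F test p, and the 3 genes most correlated with each called member. Of 108 list entries 96 were measured; the others are not analysed here. Whether title numbers pair arrays was checked by correlating deviations from group means: in C4BPD vs IAPP all 5 pairs exceeded 0.1 (0.152 to 0.305), in each other comparison at least 1 did not. Promoter sequences are RefSeq's (GRCr8). Alternatives were other normalizations, filters, groupings, weights and left-out arrays. Figures used matplotlib 3.10.9 under Python 3.11.15.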

Additional observations from a re-analysis of the deposited data

Results flagged for a closer look

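In 5 of the 40 combinations of gene and group, 1 array lay apart from the other 4 by more than Dixon's 95% critical value of 0.71; chance alone gives about 1 in 20 groups. Ramp2 in C4BPD 5 had an intensity of 463, against 525 to 544 in the other C4BPD arrays, and without it the log2 difference of C4BPD vs IAPP was 0.31. Ece1 in IAPP 4 was 3028, against 3247 to 3306, and in DMSO 3 it was 3295, against 3642 to 3764. Ramp2 was also lowest at number 5 in C4BP (450) and DMSO (425), but in IAPP it was lowest at number 4 (401). Ece1 was lowest at number 4 in C4BP (2957) and at number 3 in C4BPD (3252). Whether same-numbered arrays deviate together for these genes was not tested. Nrdc in C4BPD 1 was 3837, against 4019.6 to 4060, and Calcr in DMSO 1 was 76.7, against 66.0 to 68.6; neither gene passed the test in any comparison.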

How the results depend on the processing

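The main counts of the 10 genes past the threshold were 1 in IAPP vs DMSO, 0 in C4BPD vs DMSO, 2 in C4BP vs DMSO, 0 in C4BP vs IAPP, 1 in C4BP vs C4BPD, 1 in C4BPD vs IAPP, 0 in the interaction and 3 in the difference among the 4 groups. With each array left out in turn they ranged from 0 to 2 in IAPP vs DMSO, 1 to 3 in C4BP vs DMSO, 0 to 1 in C4BP vs IAPP, 0 to 1 in C4BP vs C4BPD and 1 to 3 in the difference among the 4 groups; in C4BPD vs DMSO, C4BPD vs IAPP and the interaction they kept their value. Arrays centred on their median gave 1 in C4BP vs DMSO and 1 in the difference among the 4 groups, quantile normalization 0 in C4BP vs C4BPD, and testing all probe sets 0 in IAPP vs DMSO, 1 in C4BP vs DMSO, 0 in C4BP vs C4BPD and 2 in the difference among the 4 groups. A filter on dim genes gave 2 in IAPP vs DMSO, 1 in C4BP vs IAPP and 2 in C4BPD vs IAPP. It took out Calcr, Calcrl, Ramp3 and Mme, so these counts are not out of 10. Of the genes it left, 7.08% passed in IAPP vs DMSO and 11.3% in C4BPD vs IAPP, against 3.38% and 5.46% in the main fit. An intensity trend and array weights each gave 2 in IAPP vs DMSO and 2 in C4BPD vs IAPP. With the trend C4BP vs C4BPD kept a count of 1, but Ramp1 lost its call (limma adjusted p = 0.0519) and Ide gained one (0.0484). Fitting only the 2 groups compared gave 0 in IAPP vs DMSO, 1 in C4BP vs DMSO and 0 in C4BP vs C4BPD. With the title number as a replicate block the counts were 2 in IAPP vs DMSO and 1 in C4BP vs IAPP. They were 4 in C4BP vs C4BPD, 2 in C4BPD vs IAPP and 5 in the difference among the 4 groups. With the block, 1.94% of all genes passed in C4BP vs IAPP, against 0.606% in the main fit. The share of genes called in C4BP vs C4BPD was at most 5.37% under any setting, against 2.37% in the main fit. For the difference among the 4 groups it was at most 15.8%, against 7.85%. Both of these highest shares came with the filter on dim genes. Same-numbered arrays deviated together at r over 0.1 in all 5 pairs only in C4BPD vs IAPP (median 0.169). In C4BP vs IAPP 4 of 5 pairs did so, with a higher median of 0.318, and the median was positive in every comparison. The titles also carry a running number, in which the 4 arrays that share a title number are consecutive. In a setting chosen after seeing the data, leaving out all 4 arrays of a number, the counts were 0 in C4BP vs C4BPD for every number, 0 or 1 in IAPP vs DMSO, C4BP vs IAPP and C4BPD vs IAPP, 1 or 2 in C4BP vs DMSO and between 0 and 2 in the difference among the 4 groups. The cause of these shifts was not tested.

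With groups from the treatment field every count was 0, and many called differences turned sign, none past the threshold. On the log2 scale, IAPP vs DMSO became 0.037 for Ramp1, 0.045 for Ackr3, 0.018 for Gipr and -0.022 for Pitrm1, and C4BPD vs DMSO 0.060 for Arrb1. C4BP vs DMSO became 0.18 for Ramp1, 0.084 for Ece1, 0.029 for Ackr3, 0.11 for Grk5, 0.058 for Gcgr, -0.049 for Pitrm1, 0.085 for Cltrn, -0.070 for Thop1, -0.028 for Ctsl and -0.076 for Clu. C4BP vs C4BPD became 0.13 for Ramp1, 0.036 for Ackr3 and 0.033 for Gcgr, and C4BPD vs IAPP -0.029 for Ramp2, -0.052 for Ackr3, 0.039 for Arrb1 and -0.028 for Adam9. Sign was kept, without a call, by Ctsl in IAPP vs DMSO, Adam9 in C4BPD vs DMSO and Adcyap1r1 in C4BP vs DMSO. Gipr, Ctsl and Anpep in C4BPD vs IAPP kept theirs as well.

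Over all settings, 2637 of 2748 values of the 10 genes kept their side of the threshold and any called direction, 80 lost a call in the same direction, 26 gained one, and 5 called values turned sign and lost their call, all under the treatment field. Among the values that kept their side, 129 changed sign with no call in either setting. The share of all genes called was at most 7.08% in IAPP vs DMSO, 12.2% in C4BP vs DMSO and 11.3% in C4BPD vs IAPP under any setting. Calcr, Calcrl, Ramp3 and Mme were not shown to be above background, which may limit what could be detected. Ramp1 was likewise not shown to be above background.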
